A study of Mus musculus with 7 samples.

Results

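The genes described here are cytochrome P450 and flavin-containing monooxygenase genes of brown fat, with the reductase gene that serves the P450 enzymes. The list named 9 genes, Cyp2b10, Cyp2e1, Cyp4b1, Cyp1b1, Cyp2f2, Fmo1, Fmo2, Fmo5 and Por, and took every probe set paired with them in a table of 18193 named genes. The probe table used here paired 18 probe sets with 8 of these genes and none with Por, whose level is not analysed here. The genes had been selected on their differences between knockout (KO) and wild type on these same arrays, so their levels and differences are a description, and no p-value is given for them.

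All mice were male, 3 days old and of the C57BL/6J strain, and RNA was taken from their brown fat. In 4 samples (KO replicates 1 to 4) the glycerol kinase gene Gyk had been knocked out, and 3 samples (wild-type replicates 1, 3 and 4) served as controls. Each sample was read on 1 array as signal intensities, and precision is limited by how few arrays there are. The labels name no allele or targeting method and do not say that replicates are separate animals, so an error given here may be a technical spread.

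Cytochrome P450 enzymes are haem proteins that insert 1 oxygen atom into lipids, steroids, drugs and other small molecules. Those of the endoplasmic reticulum take their electrons from the reductase encoded by Por. Flavin-containing monooxygenases carry a flavin in place of haem and oxidise nitrogen and sulfur atoms of small molecules. Liver and lung are the tissues in which most of these enzymes have been studied.

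The tissue label was checked against brown fat markers, and 13 of 13 with a probe set were well measured on all 7 arrays. Ucp1, the uncoupling protein of heat production, read 26886.6 to 37576.9 on the KO arrays and 29264 to 33706 on the wild-type arrays, which overlapped. Median signal per array was 131.2 to 153.7 units. The array labelled KO replicate 2 stood apart from the other KO arrays on the first principal component, with a score of -13.75 against 33.41 to 35.67 for KO replicates 1, 3 and 4 and -33.27 to -23.02 for wild type. It also carried Xist, the RNA that coats an inactive X, at 2756.7 on the probe set 1436936_s_at, against 182.8 to 272.7 on the other 6 arrays, although its label says male. The same array also carried transcripts of the Y chromosome, with Eif2s3y at 1251.5 against 1210 to 1565.8 on the other 6 arrays, Kdm5d at 325.1 against 386.4 to 471.1, and Uty at 475.3 against 697.3 to 854, each by its brightest probe set. Results that rest on this array are therefore also given without it. Gyk itself is not analysed here.

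A probe set was taken as well measured on an array when its signal passed the 95th percentile of 77 probe sets for olfactory and vomeronasal receptors, genes that fat is not known to use. That level lay between 177.76 and 243.68 signal units, depending on the array. By this measure 5 of the 18 probe sets were well measured on all 7 arrays, those of Cyp2e1, Cyp4b1 and Fmo1 and the brightest of Cyp1b1 and Fmo5. Another 8 were well measured on some arrays only, and these were the 3 of Cyp2b10, 4 of the 5 of Fmo2 and the 1 of Cyp2f2. The remaining 5 stayed near background on every array and belonged to Cyp1b1 (2), Fmo5 (2) and Fmo2 (1). With the 99th percentile in place of the 95th, 4 were well measured on all 7 arrays and 6 near background.

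**Figure D1:**
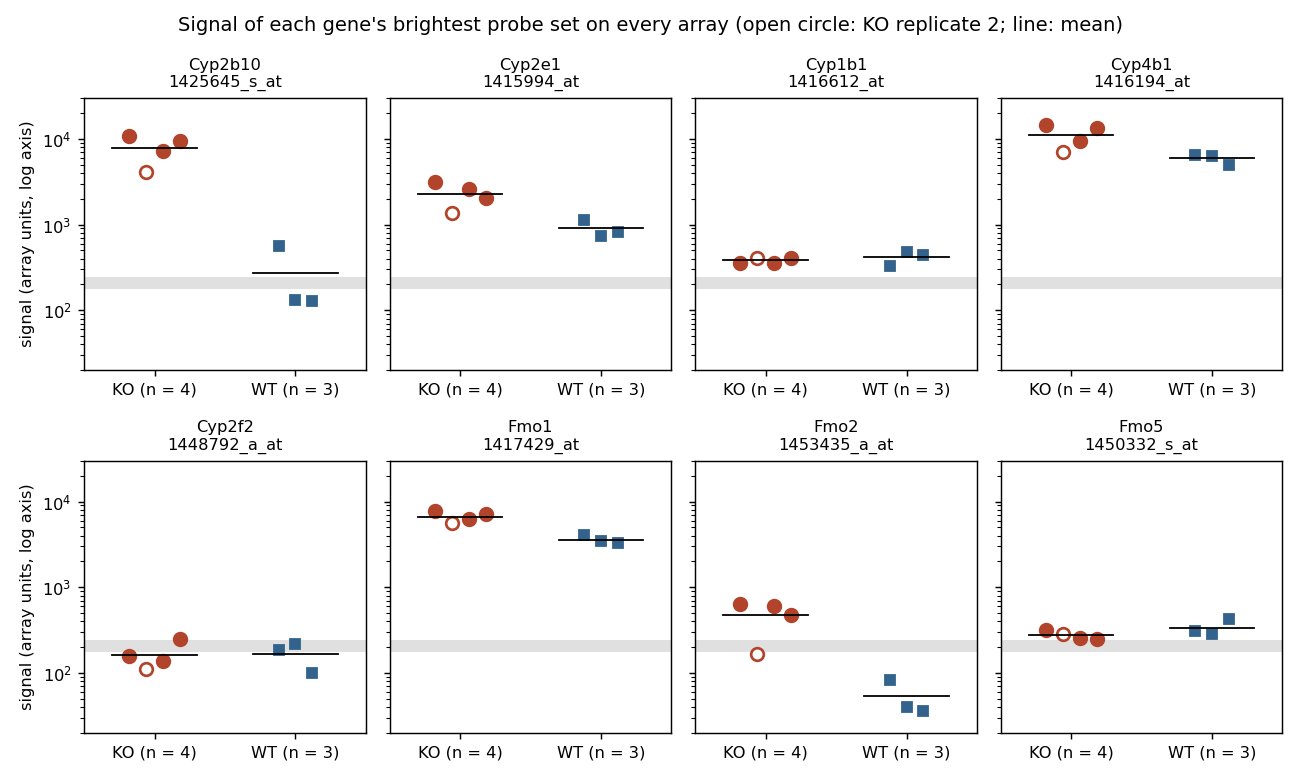
Signal (array units, log axis) of the brightest probe set of each of the 8 measured genes, with KO arrays as circles (KO replicate 2 open), wild-type arrays as squares and the group mean as a line; the grey band spans the receptor level of 177.76 to 243.68 over the 7 arrays. KO circles lie above all wild-type squares for Cyp2b10, Cyp2e1, Cyp4b1, Fmo1 and Fmo2, and overlap them for Cyp1b1, Cyp2f2 and Fmo5.

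Cyp2b10, Fmo2, Cyp2e1, Fmo1 and Cyp4b1 were higher on every KO array than on any wild-type array by their brightest probe set, while Cyp1b1, Cyp2f2 and Fmo5 overlapped between the genotypes. Cyp2b10 showed the largest log2 difference among the 8 genes, and those of Fmo1 and Cyp4b1, at 0.88 and 0.86, lay closer together than their SE. Of the 18 probe sets, 15 passed the filter on dim signals and 3 did not. Among the 15, 8 were called higher in KO and 0 lower by limma (Benjamini-Hochberg adjusted p under 0.05 over all 27022 probe sets tested), against 0.951% of all tested probe sets called higher, 0.644% called lower and 1.59% called either way. Since the list was drawn up from this contrast, the count supports nothing by itself. The 8 were the 3 probe sets of Cyp2b10, 3 of Fmo2 and those of Cyp2e1 and Fmo1. The filter used the mean over KO and wild-type arrays together, so high KO signals counted towards entry into the test. The 3 called Fmo2 probe sets read only 20.4 to 83.9 on the wild-type arrays. With no filter, where genotype cannot affect entry, probe set 1435459_at of Fmo2 was still called. The other called Fmo2 probe sets were lost, so their calls depend on the choice of filter. Apart from leaving the filter out, no setting that ignores genotype differences at entry was tried for them.

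All KO arrays lay above all wild-type arrays in 9 of the 15 probe sets, against 7.48% of all tested probe sets, and all below in 1, against 7.25%. Log2 differences are on the scale log2(signal + 30.6), which understates the change of dim probe sets. The number of called probe sets depended on single arrays. Without KO replicate 2 it was 10, with Cyp4b1 and the fourth probe set of Fmo2 added, against 3.14% of all probe sets called higher and 7.35% either way. It was 3 without KO replicate 1, KO replicate 3, KO replicate 4, wild-type replicate 1 or wild-type replicate 4, and 2 without wild-type replicate 3. In each of these 6 fits only Cyp2b10 probe sets of the listed genes remained called. Calls fell over the whole table too. Of all 27022 probe sets tested, these fits called 40, 9, 15, 25, 7 and 8 in that order, against 431 with all arrays.

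**Figure D2:**
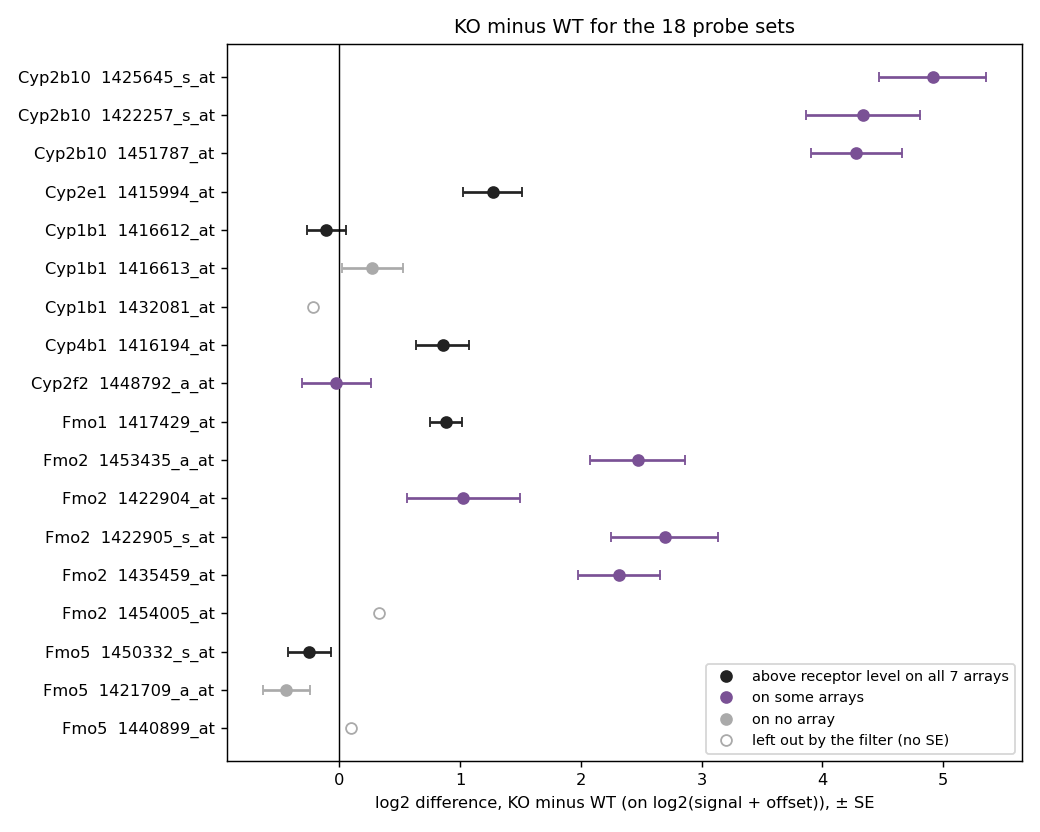
Log2 difference, KO minus wild type, with its standard error (SE) for the 18 probe sets; black points passed the receptor level on all 7 arrays, purple on some and grey on none, and open points were left out of the fit and have no SE. The 3 Cyp2b10 probe sets lie between 4.28 and 4.91 and 3 of the 5 Fmo2 probe sets between 2.32 and 2.70. Those of Cyp1b1, Cyp2f2 and Fmo5 lie between -0.44 and 0.27.

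Cyp2b10 encodes a P450 that liver induces in response to drugs such as phenobarbital through the nuclear receptor CAR. Its brightest probe set, 1425645_s_at, read 10649.5, 4080.1, 7215.5 and 9515.1 on KO replicates 1 to 4, against 556.9, 130.7 and 127.5 on wild-type replicates 1, 3 and 4. The lowest KO array, replicate 2, was still several times above the highest wild-type array, replicate 1. The means were 7865 ± 2899.6 in KO and 271.7 ± 247 in wild type (SD, n = 4 and 3), a log2 difference of 4.91 ± 0.44 (SE) or 30.1-fold. On wild-type replicates 3 and 4 this probe set was below the receptor level, so the fold change rests on a wild-type level near background.

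The other Cyp2b10 probe sets gave the same order of arrays in KO. Probe set 1451787_at read 5462.5, 1870.8, 3458.7 and 3932.3 on KO replicates 1 to 4, against 284.3, 137.9 and 76.5 on the wild-type arrays, a log2 difference of 4.28 ± 0.38 (SE). Probe set 1422257_s_at read 9022.6, 2832, 5158.9 and 5989 in KO and 530.7, 246.2 and 88.6 in wild type, with a log2 difference of 4.33 ± 0.47 (SE). On all 3, KO replicate 1 was the highest array and wild-type replicate 1 the highest of its group. Across the 7 arrays their log2 values correlated at 0.988 to 0.996, a likeness that includes the difference between the genotypes. The suffix _s_at marks probe sets that can bind several related transcripts, and 1451787_at does not carry it.

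Within the arrays deposited in the second of 2 runs of sample accessions (KO and wild-type replicates 3 and 4), the Cyp2b10 log2 difference on the brightest probe set was 5.70, and within the first run (KO replicates 1 and 2 against wild-type replicate 1) it was 3.50. The genotypes did not overlap in either set. With the run as a covariate 8 probe sets of the listed genes were called higher, against 1.25% of all probe sets called higher and 2.34% either way. What separates these runs is not stated in the labels. Markers of skeletal muscle, summed per array, read 44423.4 to 51782.5 on the arrays of the first run and 25665.2 to 31633.7 on those of the second. The part of muscle cells in the differences of the listed genes was not tested.

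The sequences before the transcription start are shown for the genes that did not overlap between the genotypes and whose brightest probe set was called or, for Cyp4b1, called without KO replicate 2. They come from RefSeq (GRCm38.p6), cover the 250 bases before the annotated start, and run 5′ to 3′ on the strand of the gene. The table used here holds no entry for Fmo1. For Fmo2 the more upstream of its annotated starts is used. Capitals mark exact matches, on either strand, to 4 short motifs, which are named with their letters after the sequences, and none of these matches overlap.
Cyp2b10, chr7:25897408-25897657, plus strand: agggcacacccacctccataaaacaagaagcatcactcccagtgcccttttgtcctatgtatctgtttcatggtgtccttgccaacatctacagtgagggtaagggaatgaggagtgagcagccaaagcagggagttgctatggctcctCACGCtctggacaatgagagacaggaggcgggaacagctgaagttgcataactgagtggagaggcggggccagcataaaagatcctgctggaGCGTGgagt
Fmo2, chr1:162898759-162899008, minus strand: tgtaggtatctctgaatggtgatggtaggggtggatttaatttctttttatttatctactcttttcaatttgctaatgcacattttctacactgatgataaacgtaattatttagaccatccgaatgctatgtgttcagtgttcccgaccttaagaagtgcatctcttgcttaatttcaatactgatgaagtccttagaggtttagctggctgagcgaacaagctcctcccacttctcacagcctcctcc
Cyp2e1, chr7:140763569-140763818, plus strand: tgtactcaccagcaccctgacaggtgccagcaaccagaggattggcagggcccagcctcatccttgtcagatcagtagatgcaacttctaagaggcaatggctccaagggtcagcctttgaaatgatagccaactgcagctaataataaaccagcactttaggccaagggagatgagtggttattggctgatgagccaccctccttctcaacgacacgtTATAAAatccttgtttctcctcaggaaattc
Cyp4b1, chr4:115647722-115647971, minus strand: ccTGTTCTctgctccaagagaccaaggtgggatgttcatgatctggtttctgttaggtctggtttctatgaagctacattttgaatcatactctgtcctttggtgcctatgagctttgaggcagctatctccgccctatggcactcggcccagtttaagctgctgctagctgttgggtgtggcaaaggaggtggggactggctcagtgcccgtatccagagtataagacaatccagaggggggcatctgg

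The core of aryl hydrocarbon receptor sites, GCGTG, occurred in 28.2% of all 32851 windows of this length. The Cyp2b10 window held it at 9 bases before the start and, on the other strand, at 101 bases. A glucocorticoid receptor hexamer, TGTTCT, occurred in 16.1% of all windows and once among the printed ones, at 248 bases before the start of Cyp4b1. The TATA box, TATAAA, occurred in 12.4% of all windows and in that of Cyp2e1, at 31 bases. A nuclear receptor hexamer, AGGTCA, occurred in 14.0% of all windows and in none of the 4 printed. The printed Fmo2 window held 0 matches. The window before the other annotated Fmo2 start, which is not printed, held 2, the nuclear receptor hexamer at 9 bases and, on the other strand, the glucocorticoid receptor hexamer at 125 bases. These are matches of letters only, and no motif was common to the 4 printed windows.

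Cyp2e1 oxidises ethanol, acetone and other small molecules. Its single probe set read 3096.3, 1371.3, 2594.2 and 2050.9 on KO replicates 1 to 4, against 1135.8, 742.9 and 825.1 on the wild-type arrays. KO replicate 2 lay closest to wild type, above wild-type replicate 1 by a small margin. The means were 2278 ± 740.1 in KO and 901 ± 207 in wild type (SD, n = 4 and 3), a log2 difference of 1.27 ± 0.25 (SE) or 2.41-fold. Without KO replicate 2 the log2 difference was 1.49, and with scaling to the array median Cyp2e1 was no longer called.

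Cyp4b1 hydroxylates fatty acids and some foreign compounds and is known from lung. It read 14435.7, 7076.3, 9562.3 and 13220 on KO replicates 1 to 4, against 6423.5, 6336.5 and 4971.6 on the wild-type arrays. The KO arrays spread widely, and replicate 2 exceeded the highest wild-type array only slightly. The means were 11074 ± 3375 in KO and 5911 ± 814 in wild type (SD, n = 4 and 3), a log2 difference of 0.86 ± 0.22 (SE). It was not called with all arrays, and was called without KO replicate 2, where the log2 difference was 1.05.

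Cyp1b1 hydroxylates oestrogens and polycyclic hydrocarbons and is a known target of the aryl hydrocarbon receptor. Its only well measured probe set, 1416612_at, read 359.6, 402.7, 352.8 and 410.5 in KO, against 326, 477.8 and 446.4 in wild type. The groups overlapped, and the log2 difference of -0.10 ± 0.16 (SE) was smaller than its error. Probe sets 1416613_at (0.27 ± 0.25, SE) and 1432081_at (left out of the fit) stayed near background.

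Cyp2f2 activates naphthalene in the club cells of mouse airways. Its probe set read 158.4, 112, 138 and 246.1 in KO and 184.9, 219.7 and 99.8 in wild type. It passed the receptor level on 3 of 7 arrays and, with the 99th percentile, on 0, so its values lie at or near background. The log2 difference was -0.03 ± 0.29 (SE). Scgb1a1, the defining secretory protein of club cells, stayed near background on all 7 arrays, at 17.2 to 76.8 in KO and 18.4 to 33.4 in wild type.

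Among the flavin-containing monooxygenases, Fmo1 had the smallest SE of the 5 genes that did not overlap. The enzyme is known from liver and kidney. It read 7794, 5614.2, 6228.6 and 7076.8 on KO replicates 1 to 4, against 4064.2, 3449.9 and 3257.8 on the wild-type arrays. The lowest KO array lay well above the highest wild-type array. The means were 6678 ± 955 in KO and 3591 ± 421 in wild type (SD, n = 4 and 3), a log2 difference of 0.88 ± 0.13 (SE) or 1.85-fold.

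Fmo2, the monooxygenase best known from lung, was measured by 5 probe sets. The brightest, 1453435_a_at, read 630.1, 164.9, 603.5 and 480.2 on KO replicates 1 to 4, against 83.9, 40.2 and 36.3 on the wild-type arrays. All 3 wild-type arrays and KO replicate 2 lay below the receptor level, while KO replicates 1, 3 and 4 lay above it. The log2 difference was 2.47 ± 0.39 (SE), and 2.87 without KO replicate 2.

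Probe set 1422905_s_at read 613, 98.2, 364 and 413.8 in KO and 22.4, 26.1 and 20.6 in wild type, with a log2 difference of 2.70 ± 0.44 (SE). Probe set 1435459_at read 458.2, 125.6, 301.2 and 249.7 in KO and 35.9, 27.8 and 20.4 in wild type, with a difference of 2.32 ± 0.34 (SE). These and the brightest one ranked KO replicate 1 highest and KO replicate 2 lowest of the KO arrays. Probe set 1422904_at departed from them, since KO replicate 2 read 59.8 there, within the wild-type range of 52.3 to 116.3, against 178.3 to 401 on the other KO arrays. Its log2 difference was 1.03 ± 0.47 (SE) with all arrays and 1.49 without KO replicate 2. The last probe set, 1454005_at, was left out by the filter and overlapped between the genotypes. Across the 7 arrays the 3 called Fmo2 probe sets correlated at 0.977 to 0.987 with each other.

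Fmo5, which can also oxidise ketones to esters, was not higher in KO on its tested probe sets. The brightest, 1450332_s_at, read 321.4, 287.3, 253.3 and 248.4 in KO and 309.1, 281.5 and 424.5 in wild type, with overlap and a log2 difference of -0.25 ± 0.18 (SE). Probe set 1421709_a_at read 132.6, 120, 100.1 and 121.4 in KO, against 165.4, 154.7 and 193.5 in wild type. The groups did not overlap on it, but it was near background on every array and was not called (log2 difference -0.44 ± 0.19, SE). The remaining one, 1440899_at, was left out by the filter, at 48 to 94.1 in KO and 57.9 to 94.6 in wild type.

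**Figure D3:**
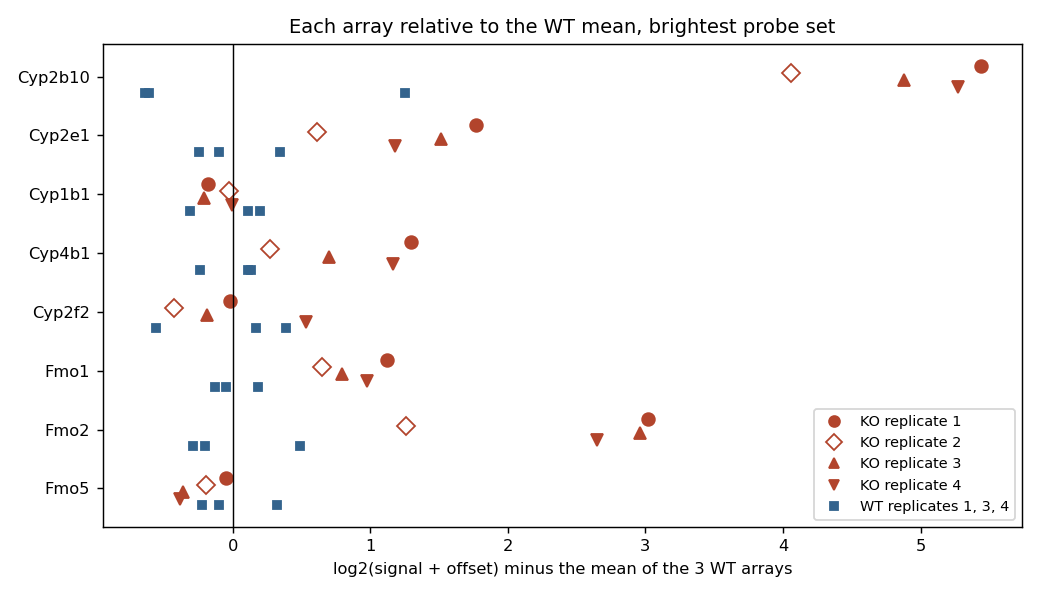
Log2(signal + 30.6) of each array minus the mean of the 3 wild-type arrays, for the brightest probe set of each gene; red symbols are KO replicates and blue squares wild-type replicates. KO replicate 2 (open diamond) is the KO array closest to wild type for Cyp2b10 (4.06), Cyp2e1 (0.61), Cyp4b1 (0.27), Fmo1 (0.65) and Fmo2 (1.26).

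The array labelled KO replicate 2 lay between wild type and the other KO arrays for each of the 5 genes that did not overlap, but not at the same relative distance. Relative to the wild-type mean, the log2 value of Cyp2b10 on it was 78.1% of the mean difference of KO replicates 1, 3 and 4, and that of Fmo1 was 67.1%. The share was 43.9% for Fmo2, 41.1% for Cyp2e1 and 25.4% for Cyp4b1, each by the brightest probe set. Wild-type replicate 1 was the highest wild-type array for all 5 genes. Correlations of log2 values between these 5 genes lay between 0.877 and 0.987 over the 7 arrays, which share their genotype difference and array scaling. Those of Fmo5 with these 5 genes lay between -0.58 and -0.44. For Cyp1b1 they lay between -0.60 and -0.36, and for Cyp2f2 between 0.08 and 0.42.

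Genes with the most similar pattern over the 7 arrays were sought by Pearson correlation of log2 values among the brightest tested probe sets of 13102 genes. Such top values are picked from many correlations over few arrays and include the difference between the genotypes. Shared regulation was not tested. For Cyp2b10 the closest were Abcb6 (r = 0.996), a transporter linked to porphyrins, then Tigd2 (0.987), Fmo1 (0.987), C730049O14Rik (0.985) and the kinase gene Hipk3 (0.984). Abcb6 was also closest to Fmo1 (0.996), followed by Zhx3 (0.995), Arih2 (0.990), Lysmd3 (0.990) and the nuclear receptor gene Nr2c2 (0.989). For Fmo2 they were Gm11827 (0.995), the interferon gamma receptor gene Ifngr1 (0.991), Cldn15 (0.991), Gramd1b (0.991) and Trafd1 (0.990). Abcb6 read 1729 ± 118 in KO and 1140 ± 103 in wild type (SD, n = 4 and 3), a log2 difference of 0.59 against 4.91 for Cyp2b10, so likeness of pattern did not mean likeness of size.

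Most other genes of both families were not well measured in this tissue. Of 67 other Cyp and Fmo genes with a probe set, 40 stayed near background on all 7 arrays by their brightest probe set and 7 were well measured on all of them. The Cyp2 family held 32 of the 67, with 19 near background. Cyp1a1, which the aryl hydrocarbon receptor induces together with Cyp1b1 in other tissues, read 81.8 to 118 in KO and 16.1 to 166.9 in wild type. Cyp3a11, a major liver P450, read 84.2 to 215.8 in KO and 109.1 to 238.3 in wild type.

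Of the 29 other Cyp and Fmo genes tested, 1 rose and 0 fell (limma, adjusted p under 0.05, brightest probe set per gene), which is 3.45% against 1.83% of all genes tested that way (1.12% higher and 0.71% lower), and before adjustment (p under 0.05) 2 were higher and 0 lower, against 8.57% of all genes higher and 9.59% lower. Their median log2 difference was 0.06, against -0.01 over all genes tested. The gene that rose was Cyp2b9, a close relative of Cyp2b10, at 286.9, 219.6, 232.9 and 199.3 in KO and 118.6, 98.7 and 117.7 in wild type. The KO arrays all lay above the wild-type arrays, with a log2 difference of 0.89 ± 0.19 (SE, limma adjusted p = 0.0451). Its signal passed the receptor level on KO replicates 1 and 2 only, so Cyp2b9 lies near background, and in wild type below that level. The call was lost without any 1 array other than KO replicate 2 (adjusted p = 0.0991 to 0.149), and whether its probes also bind Cyp2b10 transcripts was not tested. Cyp2b13, another relative, stayed near background (7.1 to 100.7 in KO, 15.8 to 117.4 in wild type).

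The brightest of the other Cyp genes were Cyp27a1, Cyp20a1 and Cyp4f13. Cyp27a1, which oxidises sterols in mitochondria, read 1589.4, 1111, 1213.8 and 1053.2 in KO and 833.2, 598.5 and 733.4 in wild type. The groups did not overlap, and its log2 difference of 0.75 ± 0.17 (SE) narrowly missed the threshold (limma adjusted p = 0.0521). It passed without KO replicate 2 (limma adjusted p = 0.0233), in a fit that called 7.35% of all probe sets. Cyp20a1 differed by -0.16 ± 0.16 and Cyp4f13 by 0.07 ± 0.18 (log2 difference, SE), both with overlapping groups.

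The genes that lie beside Cyp2b10 and beside the Fmo1 and Fmo2 pair were read from RefSeq gene order. Among the 12 protein-coding genes nearest Cyp2b10, 6 on either side, 10 had a probe set and 7 were tested. Of these 7, 1 was called higher, Cyp2b9, which lies 2 genes away, against 1.12% of all genes called higher and 0.71% lower. Before adjustment 3 had p under 0.05 (limma), against 8.57% of all genes higher and 9.59% lower. No test of the neighbours as a set was made. Cyp2s1, the next gene on the other side, differed by -0.16 (log2 difference, not called), at 156 ± 66.1 in KO and 168 ± 21.2 in wild type (SD, n = 4 and 3). Around Fmo1 and Fmo2, 0 of 5 tested neighbours were called by limma and 1 had an unadjusted p under 0.05, against the same shares of all genes. Fmo4, the flavin monooxygenase gene next to Fmo1, read 148 ± 52.8 in KO and 125 ± 90 in wild type (SD, n = 4 and 3).

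**Figure D4:**
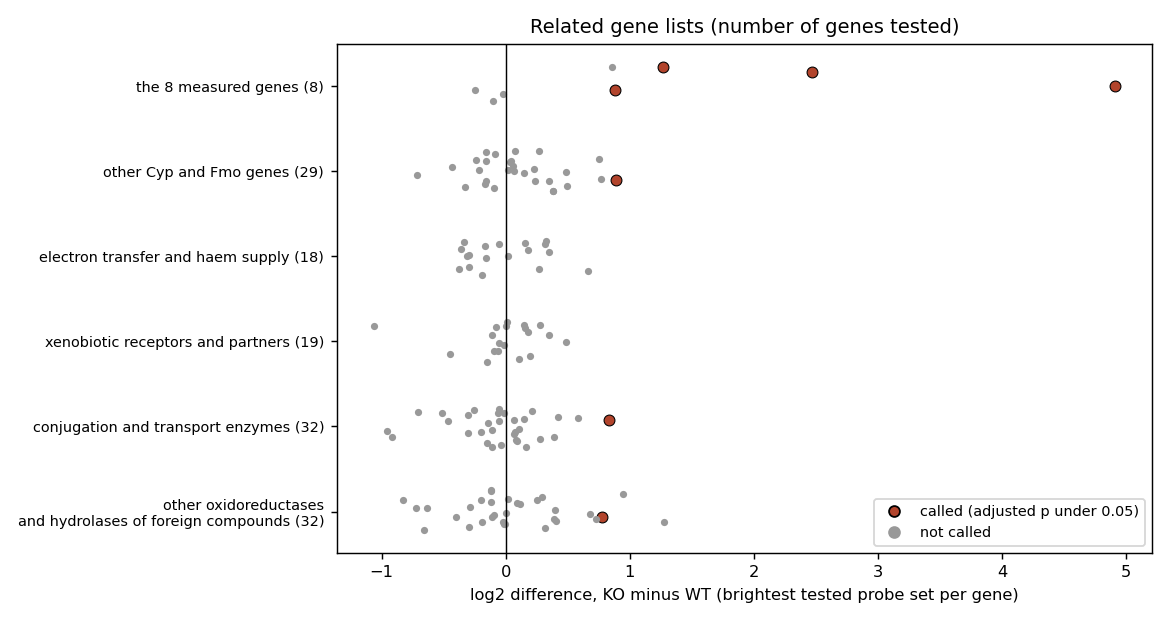
Log2 difference, KO minus wild type, of the brightest tested probe set of each gene, with 1 point per gene and red points for genes called by limma; numbers in brackets are genes tested. Points of the other Cyp and Fmo genes and of the 4 pathway lists lie around 0, with 1, 0, 0, 1 and 1 called genes from top to bottom, below the row of the 8 measured genes.

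Partners of P450 enzymes supply electrons and haem, and no gene of theirs was called. Of 18 tested genes of electron transfer and haem supply, 0 were called (limma, adjusted p under 0.05), against 1.83% of all genes, and the median log2 difference was -0.11. Before adjustment 4 were higher and 4 lower (p under 0.05), against 8.57% of all genes higher and 9.59% lower, and no test of the list as a whole was made. The smallest p belonged to Cyb5b, a cytochrome b5 of the outer mitochondrial membrane, at 4835 ± 151 in KO and 5937 ± 229 in wild type (SD, n = 4 and 3; adjusted p = 0.135, limma), and to Urod, an enzyme of haem synthesis, at 6343 ± 292 in KO and 5107 ± 703 in wild type (adjusted p = 0.176). Alas1, the rate-limiting enzyme of haem synthesis, read 7790.9 to 10715.6 in KO and 9295.5 to 11023.1 in wild type.

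Among receptors that sense foreign compounds and their partners, no tested gene was called. Of 19 tested receptor and partner genes, 0 passed (limma, adjusted p under 0.05), against 1.83% of all genes, and the median log2 difference was 0.00. Before adjustment 2 were higher and 1 lower (p under 0.05), against 8.57% of all genes higher and 9.59% lower. Nr1i3, which encodes the receptor CAR, stayed near background at 21.3 to 29 in KO and 25.5 to 31.6 in wild type. So did Nr1i2 (encoding PXR), at 79.5 to 114.4 in KO and 53.9 to 106.7 in wild type. The filter left out both genes, so neither was tested. Ahr, the aryl hydrocarbon receptor gene, was well measured and overlapped (337.6 to 434 in KO, 326.3 to 413.1 in wild type). These 3 and Alas1, Cyp1a1, Cyp3a11 and Cyp2b13 were named outside the rule for named genes.

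By that rule the 2 receptor genes with the smallest p were Esr1 and Rxra. Esr1, an oestrogen receptor gene, was at 574 ± 228 in KO and 1176 ± 130 in wild type (SD, n = 4 and 3; log2 difference -1.06, limma adjusted p = 0.0558). Rxra, the shared partner of many nuclear receptors, was at 1195 ± 120 in KO and 843 ± 86.1 in wild type (adjusted p = 0.085). Both passed without KO replicate 2 (limma adjusted p = 0.00195 and 0.0256), in a fit that called 7.35% of all probe sets.

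Of 32 tested conjugation and transport genes, 1 rose and 0 fell, which is 3.125% against 1.83% of all genes. Before adjustment 5 were higher and 4 lower (p under 0.05), against 8.57% of all genes higher and 9.59% lower, and the median log2 difference was -0.04. The riser was the sulfotransferase gene Sult1a1, at 5280.4, 3371.6, 4226.1 and 4529.7 in KO and 1905.9, 2984.8 and 2440.5 in wild type (log2 difference 0.83 ± 0.17, SE, limma adjusted p = 0.0461). Of 32 tested genes of other oxidising and hydrolysing enzymes, 1 rose and 0 fell, the same share. Before adjustment 7 were higher and 6 lower, against those shares of all genes, and the median log2 difference was -0.01. That riser was the carboxylesterase gene Ces1d, whose 3 probe sets all rose. Its brightest read 15219.4, 12127.2, 13243.6 and 14838.9 in KO and 10045.6, 6481 and 8009.4 in wild type (log2 difference 0.78 ± 0.15, SE, limma adjusted p = 0.0342). Both calls were lost without any 1 array other than KO replicate 2, with adjusted p = 0.0903 to 0.16 for Sult1a1 and 0.0526 to 0.133 for this probe set of Ces1d.

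Because these genes are also liver and lung genes, markers of other cell types were summed per array. Liver markers were present and uneven, with 4 of 15 well measured on all 7 arrays and a summed signal of 10190 to 32928.8 in KO and 10716 to 50330 in wild type. Hp made up most of the lowest sums, at 7997.9 to 13153.7 in KO and 7033 to 11208.4 in wild type. The sums therefore understate how uneven markers such as Ahsg were. It read 27.2 to 1487.3 in KO and 136.4 to 2511 in wild type. Albumin (Alb) read 492.8, 4128.5, 411.3 and 4810.1 on KO replicates 1 to 4 and 2865.5, 569.3 and 9470.4 on the wild-type arrays, so the genotypes overlapped. Among the KO arrays, replicates 2 and 4 had the higher albumin signal, with the lowest and second highest Cyp2b10 signal, and replicates 1 and 3 the lower albumin signal, with the highest and second lowest. The part of liver cells in the differences of the listed genes was not tested.

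Lung epithelial markers summed to 1255.9 to 2077.7 in KO and 1167.1 to 1603.9 in wild type, with 1 of 9 well measured on all 7 arrays. Summed white fat markers read 9928.3 to 15676.6 in KO and 16830.3 to 18948.3 in wild type, mostly from Retn and Nnat. Of 8 genes 0 were called higher and 1 lower, against 1.12% of all genes tested called higher and 0.71% lower. The gene called lower was Nnat, at 1896.8 to 3607.1 in KO and 4295.7 to 7553.3 in wild type. Leptin (Lep) was at 193.2 to 579.8 in KO and 694.4 to 746.4 in wild type (not called). Hoxc8 was at 65.3 to 224.5 in KO and 253.7 to 268.8 in wild type (not called). For Nnat, Lep and Hoxc8 all KO arrays lay below all wild-type arrays, as in 7.25% of all tested probe sets. The list did not move together. Retn overlapped (5734.7 to 9937.7 in KO, 9170.9 to 10539.1 in wild type), as did Wt1, which stayed near background. Agt, Tcf21 and Hoxc9 overlapped too, with log2 differences of 0.23, 0.25 and 0.33. The summed fibroblast and pericyte markers, at 55220.2 to 87051.5 in KO and 85045.6 to 94682.3 in wild type, overlapped on 1 KO array, KO replicate 2. Of these 14 genes 0 were called higher and 1 lower (Acta2), against the same shares of all genes. The part of white fat, fibroblast or pericyte cells in the differences of the P450 and monooxygenase genes was not tested, and in bulk tissue fewer cells of a type and less RNA per cell cannot be told apart.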

How the data were processed

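Each deposited value is a linear signal intensity of a probe set on an array. The submitters' processing notes name GCOS 1.2. The scaling method and detection calls are not given in the sources used here, and the deposited scaling was kept. Per the labels, total RNA was extracted with Trizol reagents and labelled with biotin. The table held 45101 probe sets, of which 64 controls were left out. Of the other 45037, 34945 had 1 symbol in the probe table, 932 several and 9160 none. RefSeq gene identifiers (GRCm38.p6) served to update symbols.

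The log2(signal + 30.6) scale was used, where 30.6 is the 20th percentile over the whole table. Probe sets with a mean log2 under the 40th percentile were left out, which left 27022. The fit of 4 KO against 3 wild-type arrays used limma 3.58.1 in R 4.3.3 (lmFit, then eBayes with trend; two-sided; Benjamini-Hochberg; threshold 0.05). No covariate or block was used. Group means are of signals with SD, and log2 differences carry the SE of the fit. A gene is represented by its brightest probe set. The fitting code was tested on simulated data.

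The genes and lists were chosen with earlier results of these data known. All probe sets of the 8 measured genes are named. From each of 5 other lists the rule named the genes that passed, else the 2 with the smallest p, with the 3 brightest other Cyp or Fmo genes and the 5 most similar genes for Cyp2b10, Fmo2 and Fmo1. Cell type marker lists were described by their sums, given here for liver, lung, white fat, fibroblast and pericyte, and skeletal muscle markers. The alternatives were other scalings, offsets, filters and variance models, the replicate number as a block, the run of accessions as a covariate or alone, and leaving out each array.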

Additional observations from a re-analysis of the deposited data

How the results depend on the processing

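Over 18 alternatives, the log2 difference of a measured gene's probe set moved by less than 1 SD in 259 of 266 values. The 7 others all came from the first run of accessions alone (KO replicates 1 and 2 against wild-type replicate 1), where limma called 0 probe sets in all and 0 in each list. No called difference changed sign. With all arrays 431 probe sets were called, 8 of them among the measured genes, and 1 other Cyp or Fmo gene, 0 electron transfer, 0 receptor, 1 conjugation and 1 other oxidising or hydrolysing gene. Scaling to the array median gave 235 probe sets in all, 0 other Cyp or Fmo genes and 0 oxidising or hydrolysing genes. Quantile normalization gave 0 conjugation genes, and an offset of 64 gave 2 other Cyp or Fmo genes. Without the filter 100 probe sets were called, 5 of the measured genes (Cyp2e1 and 2 probe sets of Fmo2 were lost), and 0 other Cyp or Fmo, conjugation and oxidising or hydrolysing genes. A filter at the 60th percentile, which leaves fewer dim probe sets, gave 5 for the measured genes, 1 receptor, 2 conjugation and 2 oxidising or hydrolysing genes. Without the variance trend 6 were called in all, 2 for the measured genes (both Cyp2b10) and 0 in each of those 3 lists.

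With the replicate number as a block 2183 probe sets were called, with 2 other Cyp or Fmo, 2 electron transfer, 2 receptor, 5 conjugation and 7 oxidising or hydrolysing genes, and this block also absorbs KO replicate 2, which shares its number with no wild-type array. Deviations of same-numbered arrays from their group means correlated at 0.06, 0.15 and 0.11 for numbers 1, 3 and 4. Wild-type replicates 3 and 4 correlated best with the KO array of their own number, and wild-type replicate 1 with KO replicate 2 (0.18). Whether the numbers mark pairs was not settled by these values, and they were not taken as pairs. With the accession run as a covariate 2 other Cyp or Fmo, 3 conjugation and 2 oxidising or hydrolysing genes were called. Within the second run alone the counts were 726 in all, 0 other Cyp or Fmo, 1 electron transfer, 1 receptor, 3 conjugation and 4 oxidising or hydrolysing genes. Leaving out 1 array in turn gave 7 to 1986 probe sets in all, 2 to 10 of the measured genes, 0 to 2 other Cyp or Fmo, electron transfer and receptor genes, 0 to 6 conjugation and 0 to 7 oxidising or hydrolysing genes. The highest count of each came without KO replicate 2. The cause of these shifts was not tested. Signals near the receptor level limit Cyp2f2, Fmo5, Cyp2b9 and wild-type Cyp2b10 and Fmo2.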

Other observations

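Without the array labelled KO replicate 2, genes of the related lists passed in both directions (limma, adjusted p under 0.05), and the genes below were picked from them with their values known. That fit called 7.35% of all probe sets tested, against 1.59% with all arrays. The array was set apart in part by its place between the genotypes, so calls gained by leaving it out are no independent support. Among genes of foreign compound metabolism, Hsd3b7, a bile acid enzyme, fell to 1885 ± 173 on KO replicates 1, 3 and 4, against 3583 ± 182 in wild type (SD, n = 3 each; adjusted p = 0.00153), while KO replicate 2 read 3265.5. Aldh1a7, an aldehyde dehydrogenase gene, fell to 842 ± 182 on the same KO arrays, against 1739 ± 345 in wild type (adjusted p = 0.00929). Xdh, which makes uric acid, was at 774 ± 88 on these KO arrays and 368 ± 121 in wild type (adjusted p = 0.0165). Hsd11b1, which regenerates active glucocorticoid, was at 940 ± 213 on these KO arrays and 477 ± 136 in wild type (adjusted p = 0.0291), and KO replicate 2 read 483.1.

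The glutathione transferase genes Gstm2 and Mgst2 fell without that array, with Gstm2 at 664 ± 20 on KO replicates 1, 3 and 4 and 1202 ± 221 in wild type (SD, n = 3 each; limma adjusted p = 0.0109) and Mgst2 at 256 ± 75.5 on these KO arrays and 610 ± 95.5 in wild type (adjusted p = 0.00967). Cyb5a, the cytochrome b5 that passes electrons to P450 enzymes, rose to 9711 ± 1067 on these KO arrays, against 7074 ± 38.9 in wild type (adjusted p = 0.0295), and Pgrmc1, a haem protein that binds P450 enzymes, fell to 3819 ± 314, against 5207 ± 427 in wild type (adjusted p = 0.0364). With all 7 arrays none of these 8 passed (adjusted p = 0.0585 to 0.207).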
